A study of Drosophila yakuba and Drosophila melanogaster with 20 samples.

Results

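Mock-treated head RNA libraries of Drosophila melanogaster, numbered replicate 1 and replicate 2, were compared for the A-to-I editing sites that each of them shows. The comparison uses 4 of the 20 libraries of the series: the HiSeq library and the NextSeq library of each number. The labels give all 4 the same strain (y; cn, bw, sp), adult stage, head tissue and mock treatment, in which RNA was carried through the inosine erasing chemistry without acrylonitrile. HiSeq reads were 50 nt long and NextSeq reads 86 nt. The protocol in the labels, worded for D. yakuba strains, gives about 50 heads and 5 µg of total RNA. The labels do not say whether the replicate numbers stand for separate groups of flies or whether a HiSeq and a NextSeq library of one number share a preparation. Genotype, tissue and treatment are alike in all 4 libraries, while instrument and read length differ between HiSeq and NextSeq. Within an instrument, the labels give no difference other than the replicate number.

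Adenosine deaminases acting on RNA bind double-stranded stretches of a transcript and convert adenosine to inosine, which reverse transcriptase reads as guanosine. An edited base then appears as A-to-G, or as T-to-C where the transcript runs along the reverse strand of the genome. In flies a single Adar gene carries this activity, its best known targets are transcripts of ion channels and of the synaptic release machinery, and edited bases often lie in dense groups because one duplex offers many adenosines.

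The members were the 1238 positions of the authors' D. melanogaster site list. A site counted as detected in a library when the library's table of base differences held an A-to-G or a T-to-C change at that position. Neighbouring sites were chained where they lay no more than 10000 bp apart, which gave 419 tracts, of which 226 held a single site, 158 held 2 to 7 sites and 35 held 8 or more. The widest gap that was still joined measured 9935 bp, inside a tract of 9 sites on X, and the narrowest that was not joined measured 10075 bp, on chromosome 4. The tables hold no read counts, so that depth is unknown and a site that a table does not list may be unedited, uncovered or below the authors' calling limits. Fewer reads from a transcript and less editing of it cannot be told apart. In RNA of whole heads, fewer cells of a type and less RNA per cell cannot be told apart either. Coordinates are those of dm3, and the genes at these positions were not annotated here.

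The tables of replicate 2 were longer on both instruments. They held 196988 differences against 115079 in replicate 1 on HiSeq, 1.71 times as many, and 1087962 against 419113 on NextSeq, 2.60 times as many. Other base differences, meaning all except A-to-G or T-to-C, which the detection rule does not use, rose 1.68-fold on HiSeq and 2.62-fold on NextSeq. Their number is set beside the results below because the tables give no direct measure of how much sequence was read. Most were listed by a single library. Transversions (changes between a purine and a pyrimidine) that no other library listed were 947125 of the 1034495 in NextSeq replicate 2. In HiSeq replicate 2 they were 90338 of 153858. Their number may therefore also depend on the error rate, which is not given. Whether depth accounts for the differences in detection was not tested.

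Replicate 2 showed many more of the listed sites than replicate 1, by nearly the same margin on both instruments. Replicate 1 listed 556 sites on HiSeq (44.9%, exact 95% binomial interval 42.1 to 47.7) and 502 on NextSeq (40.5%, 37.8 to 43.3). Replicate 2 listed 944 on HiSeq (76.3%, 73.8 to 78.6) and 891 on NextSeq (72.0%, 69.4 to 74.5). Both libraries of replicate 2 lay above both of replicate 1, and the intervals, which cover counting error only, did not overlap. The means were 74.1% ± 3.03 (SD, n = 2) and 42.7% ± 3.08 (SD, n = 2), so that the difference of 31.4 points was about as large within HiSeq (31.3 points) as within NextSeq (31.4 points) and exceeded the spread between instruments. With 2 libraries against 2 an exact two-sided permutation test gave p = 0.333, the lowest value this design allows. The 2 libraries of a number come from different instruments, so each SD is a spread between instruments. The test takes no account of the instrument. If the 2 libraries of a number share a preparation, they are not separate replicates.

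The sites of replicate 1 were for the most part a subset of those of replicate 2. Either library of replicate 1 listed 655 sites and either library of replicate 2 listed 1048. Of all listed sites, 429 (34.7%) were found in replicate 2 alone, on 1 or both instruments, and 36 (2.91%) in replicate 1 alone. Requiring both instruments left 246 sites seen in replicate 2 only, 19.9% of the 1238 sites, and 9 seen in replicate 1 only, 0.727%. A further 179 sites were in both libraries of replicate 2 and 1 library of replicate 1, against 32 sites with the numbers exchanged, and 362 sites were in all 4 libraries. Of the 246 sites, 124 had A and 122 had T as the reference base, so they were split almost evenly between the strands.

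In total numbers, replicate 2 held 1.70 times as many listed sites as replicate 1 on HiSeq and 1.77 times as many on NextSeq. These ratios were below those of all A-to-G and T-to-C changes, 1.85 and 2.18, and on NextSeq also below that of other differences, 2.62. The listed sites stood apart in how many positions were common to both numbers, described below, and among the positions that the numbers did not share. Among differences listed on both instruments in 1 replicate number only, replicate 2 held 246 listed sites against 9, or 96.5% (93.4 to 98.4). It held 62.0% (60.8 to 63.2) of the same base changes at positions outside the list, 4075 against 2499. For C-to-T and G-to-A the share was 64.8% (63.7 to 66.0), and for transversions, changes between a purine and a pyrimidine, 65.7% (65.0 to 66.4). Replicate 2 was thus ahead for each of these kinds, but by 27.3 to 1 at listed sites and by 1.63 to 1.92 to 1 at the rest. The interval at listed sites overlapped none of the others. For equal ratios of totals, such a split grows more uneven as a larger part of the positions is common to both numbers. It therefore does not show that listed sites gained more in replicate 2 than the other kinds did.

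Within each instrument, listed sites that differed again leaned further to replicate 2 than the same base changes outside the list. On HiSeq, 439 listed sites were in replicate 2 and not in replicate 1, and 51 the other way round, so that replicate 2 held 89.6% (86.5 to 92.2) of the sites that differed, against 65.6% of the same base changes outside the list. On NextSeq the numbers were 441 and 52, or 89.5% (86.4 to 92.0), against 69.2%. The kinds also differed in how many positions were common to both numbers. On HiSeq these were 505 listed sites beside the 439 in replicate 2 only, and 1276 of the same base changes outside the list beside 40910 in replicate 2 only. The splits given above depend on this overlap as well. Whether any of these 4 tables contributed to the site list, or replicate 2 more than replicate 1, is not stated in the labels or files, and neither is the calling rule. Its part in the asymmetry was not tested.

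**Figure D1:**
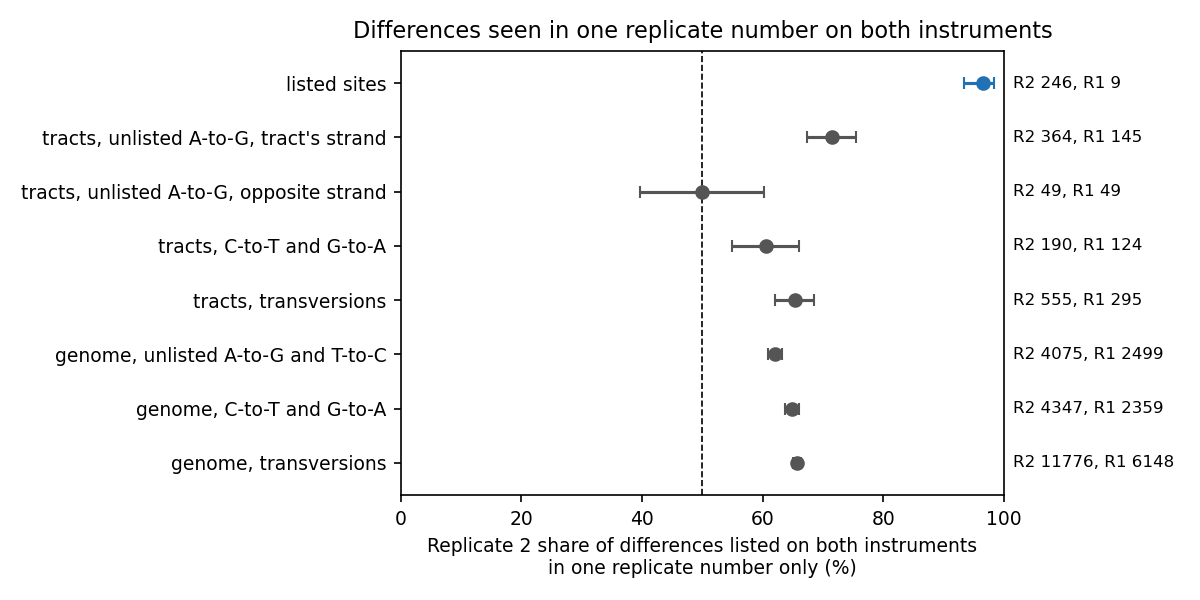
Share of replicate 2 among differences listed on both instruments in 1 replicate number only (x axis, %), by kind of difference, with exact 95% binomial intervals and the counts of replicate 2 (R2) and replicate 1 (R1) at the right. Listed sites lie at 96.5%, while the kinds over the whole genome lie between 62.0% and 65.7%, and unlisted A-to-G on the opposite strand of the tracts lies at 50.0%, the dashed line.

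Around the tracts, unlisted A-to-G differences on the strand of the tract also leaned to replicate 2. Within tracts of a known single strand and 100 bp on each side, 364 such positions were in replicate 2 only on both instruments and 145 in replicate 1 only, a share of 71.5% (67.4 to 75.4). On the opposite strand the counts were 49 and 49, or 50.0% (39.7 to 60.3), although within each instrument replicate 2 was ahead there as well, at 58.1% on HiSeq and 64.0% on NextSeq. C-to-T and G-to-A in the same spans gave 60.5% (54.9 to 66.0) and transversions 65.3% (62.0 to 68.5), so that the intervals of the tract's strand and of the transversions overlapped.

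Counted by tract, detection again favoured replicate 2. At least 1 site was seen in 200 tracts in HiSeq replicate 1 and 183 in NextSeq replicate 1, against 318 and 304 in the libraries of replicate 2. The share of sites detected, averaged over the 419 tracts, was 33.3% ± 3.22 (SD, n = 2) in replicate 1 and 65.5% ± 3.14 (SD, n = 2) in replicate 2, 32.2 points apart (p = 0.333 in the same exact permutation test). The limits given above for the SD and the test hold here too. The share was higher in replicate 2 on both instruments in 143 tracts (34.1%) and higher in replicate 1 on both in 5 (1.19%). It was equal on both instruments in 108 tracts, of which 58 had no detected site at all and 41 had every site detected in all 4 libraries. In 14 tracts the instruments gave opposite directions, and in the remaining 149 the share was equal on 1 instrument, with replicate 2 higher on the other in 126 of them.

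**Figure D2:**
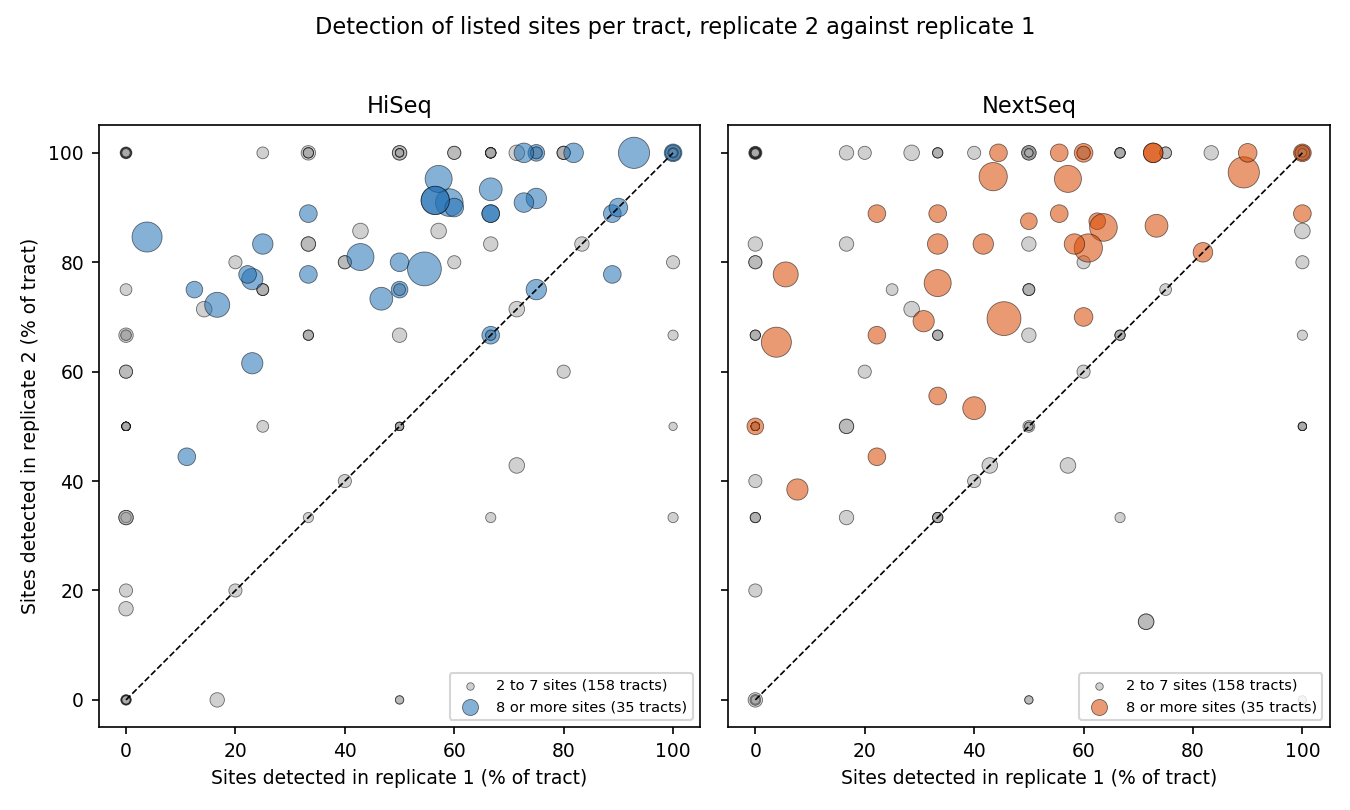
Share of a tract's listed sites detected in replicate 1 (x axis, %) and replicate 2 (y axis, %), on HiSeq at the left and NextSeq at the right, for the 193 tracts of 2 or more sites. Each circle is a tract, its area follows the number of sites, coloured circles hold 8 or more sites, and the dashed line marks equal shares, above which most circles lie on both instruments.

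The margin was of similar size in small and large tracts. Single sites were detected in 28.8% (HiSeq) and 23.9% (NextSeq) of cases in replicate 1 and in 60.2% and 56.6% in replicate 2. In tracts of 2 to 7 sites the shares rose from 43.8% and 40.2% to 75.2% and 70.3%, and in tracts of 8 or more from 53.7% and 48.8% to 84.9% and 81.0%. Larger tracts were thus detected more fully in each library, while the difference between the numbers stayed between 30.1 and 32.7 points in all 3 classes and on both instruments.

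A total of 73 tracts, 17.4% of 419, were seen in replicate 2 on both instruments and in replicate 1 on neither. They were small: 39 held 1 site, 29 held 2 or 3, and 5 held 4 to 6. Only 3 tracts (0.716%) were seen in replicate 1 alone on both instruments. At least 1 other base difference lay in the tract or within 500 bp for 49 of the 73 in HiSeq replicate 1 and 67 in NextSeq replicate 1, against 64 and 73 in replicate 2. Since this measure includes the flanks, it does not show that the sites themselves were covered. Summed over these tracts, other differences numbered 225 and 583 on HiSeq, replicate 1 first, and 1132 and 3473 on NextSeq, or 2.59 and 3.07 times as many in replicate 2. In the 147 tracts seen in all 4 libraries the corresponding ratios were 1.35 and 2.00. The 58 tracts with no detected site gave 2.12 and 2.45, and the 62 seen in 1 library of replicate 2 only gave 2.09 and 3.27. The 49 seen in both libraries of replicate 2 and 1 of replicate 1 gave 1.26 and 2.09. The tracts seen in replicate 2 only thus gained more other differences than those seen in all 4 libraries. Such a gain was not particular to them, and its part in the result was not tested.

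The 5 largest of these tracts held 4 to 6 sites. The tract at 3R from 24009285 to 24017476, with 6 sites and A as the edited base, showed 4 sites in HiSeq replicate 2 and 5 in NextSeq replicate 2. Its other differences were 0 and 3 on HiSeq and 15 and 45 on NextSeq in replicates 1 and 2. All 6 sites were found in replicate 2 on at least 1 instrument, 3 of them on both.

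At 3R from 7626883 to 7626994, 4 sites lay within 112 bp, and each of the 4 was listed in both libraries of replicate 2. Neither library of replicate 1 listed another difference inside this span (0 and 0), while replicate 2 listed 2 on HiSeq and 10 on NextSeq. The 20 other differences of NextSeq replicate 1 all lay in the 500 bp on each side. At 3R from 11891227 to 11891241, 4 sites lay within 15 bp. HiSeq replicate 2 listed 3 of them and NextSeq replicate 2 all 4, with 6 or fewer other differences in any library. A short stretch of this kind can be carried by the same reads, and its sites are not separate observations.

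At 3L from 18778368 to 18779835, 3 of 5 sites were in HiSeq replicate 2 and 4 in NextSeq replicate 2. Other differences there rose from 5 to 18 on HiSeq and from 20 to 84 on NextSeq. The tract at X from 8303693 to 8303787 met the rule on weaker grounds: each library of replicate 2 listed 1 of its 5 sites, and none was listed by both.

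Most sites seen in replicate 2 only lay in tracts that replicate 1 showed as well. Of the 246 sites, 138 (56.1%) were in tracts seen in all 4 libraries, 18 in tracts seen in 1 library of replicate 1, and 90 (36.6%) in the tracts seen in replicate 2 only. For 62 of them (25.2%) a site listed in a replicate 1 table lay within 100 bp, for 54 within 49 bp and for 28 within 10 bp. Those 54 sites lay within the length of a HiSeq read of a site that replicate 1 showed. The longest runs of consecutive listed sites seen in replicate 2 only had 5 members, at X from 11863002 to 11865886 and at X from 17876404 to 17878327.

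The letter case of the base and the differences nearby describe how well the 246 sites were supported. If upper and lower case stand for the read strands, which the files do not state, 41.9% of the 246 were seen on both strands in HiSeq replicate 2 and 43.5% in NextSeq replicate 2. Among the 362 sites found in all 4 libraries the shares in the same tables were 81.2% and 79.6%. Within 25 bp of the 246 sites, NextSeq replicate 1 listed another base difference at 62 sites (25.2%, 19.9 to 31.1) and NextSeq replicate 2 at 205 (83.3%, 78.1 to 87.8). At the 362 sites the shares were 82.0% (77.7 to 85.9) and 94.8% (91.9 to 96.8). At the 154 sites found in no library they were 24.0% (17.5 to 31.6) and 55.8% (47.6 to 63.8). For the 246 sites, the share with another base difference nearby in NextSeq replicate 1 was thus close to that around sites that no library showed, and the part of coverage in this was not tested. HiSeq tables were sparser, with such a difference near 6.50% of the 246 sites in replicate 1 and 20.7% in replicate 2.

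Of the 35 tracts with 8 or more sites, 28 had a higher share in replicate 2 on both instruments, and none had a higher share in replicate 1 on both. Among all 419 tracts these counts were 143 (34.1%) and 5 (1.19%). Shares tie more easily in tracts of few sites: 88 of the 226 single-site tracts were equal on both instruments, against 1 of these 35. The median difference among the 35 was 27.3 points on HiSeq and 30.8 points on NextSeq. The spread among these tracts was wide, from -5.56 to 71.2 points in the mean of both instruments. The 10 with the largest and the 5 with the smallest mean difference are described below as values without a test, since they were picked by that difference.

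The largest difference was at X from 17871687 to 17885717, a tract of 26 sites with T as the edited base. HiSeq replicate 1 listed 1 site and NextSeq replicate 1 listed 1, and these were different sites. HiSeq replicate 2 listed 22 and NextSeq replicate 2 listed 17, a difference of 80.8 and 61.5 points. Of the 26 sites, 15 were in both libraries of replicate 2 and in neither of replicate 1, 5 were in 1 library of replicate 2 alone, and 4 were in none. Other base differences in and around the tract numbered 15 and 43 on HiSeq, replicate 1 first, and 68 and 387 on NextSeq, which is 2.87 and 5.69 times as many in replicate 2, the latter the highest ratio among the 35 tracts.

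The next tract towards lower coordinates on X begins at 17820657 and ends at 17858033, 13654 bp away, and was edited on the same strand. It behaved less extremely: its 33 sites gave 18 and 26 on HiSeq, replicate 1 first, and 15 and 23 on NextSeq, or 24.2 points on each instrument. Its other differences numbered 336 and 389 on HiSeq and 1221 and 2209 on NextSeq. Whether both tracts belong to the same transcript was not examined.

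The tract at 3L from 1577278 to 1588377 held 18 sites. HiSeq replicate 1 listed 3 and HiSeq replicate 2 listed 13, while NextSeq replicate 1 listed 1 and NextSeq replicate 2 listed 14. No site was in all 4 libraries, 9 were in replicate 2 only on both instruments, and the single site of NextSeq replicate 1 was the only site that replicate 1 showed and replicate 2 did not. Other differences were 1.82 and 3.75 times as many in replicate 2.

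At 3L from 20766250 to 20766710, 9 sites lay within 461 bp. Each library of replicate 1 listed 2 of them, the same 2 on both instruments, and the libraries of replicate 2 listed 7 and 8. Since this tract is short, the 2 sites that replicate 1 showed and the 5 seen in replicate 2 only came from one small stretch of RNA. Other differences numbered 7 and 15 on HiSeq and 31 and 103 on NextSeq.

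**Figure D3:**
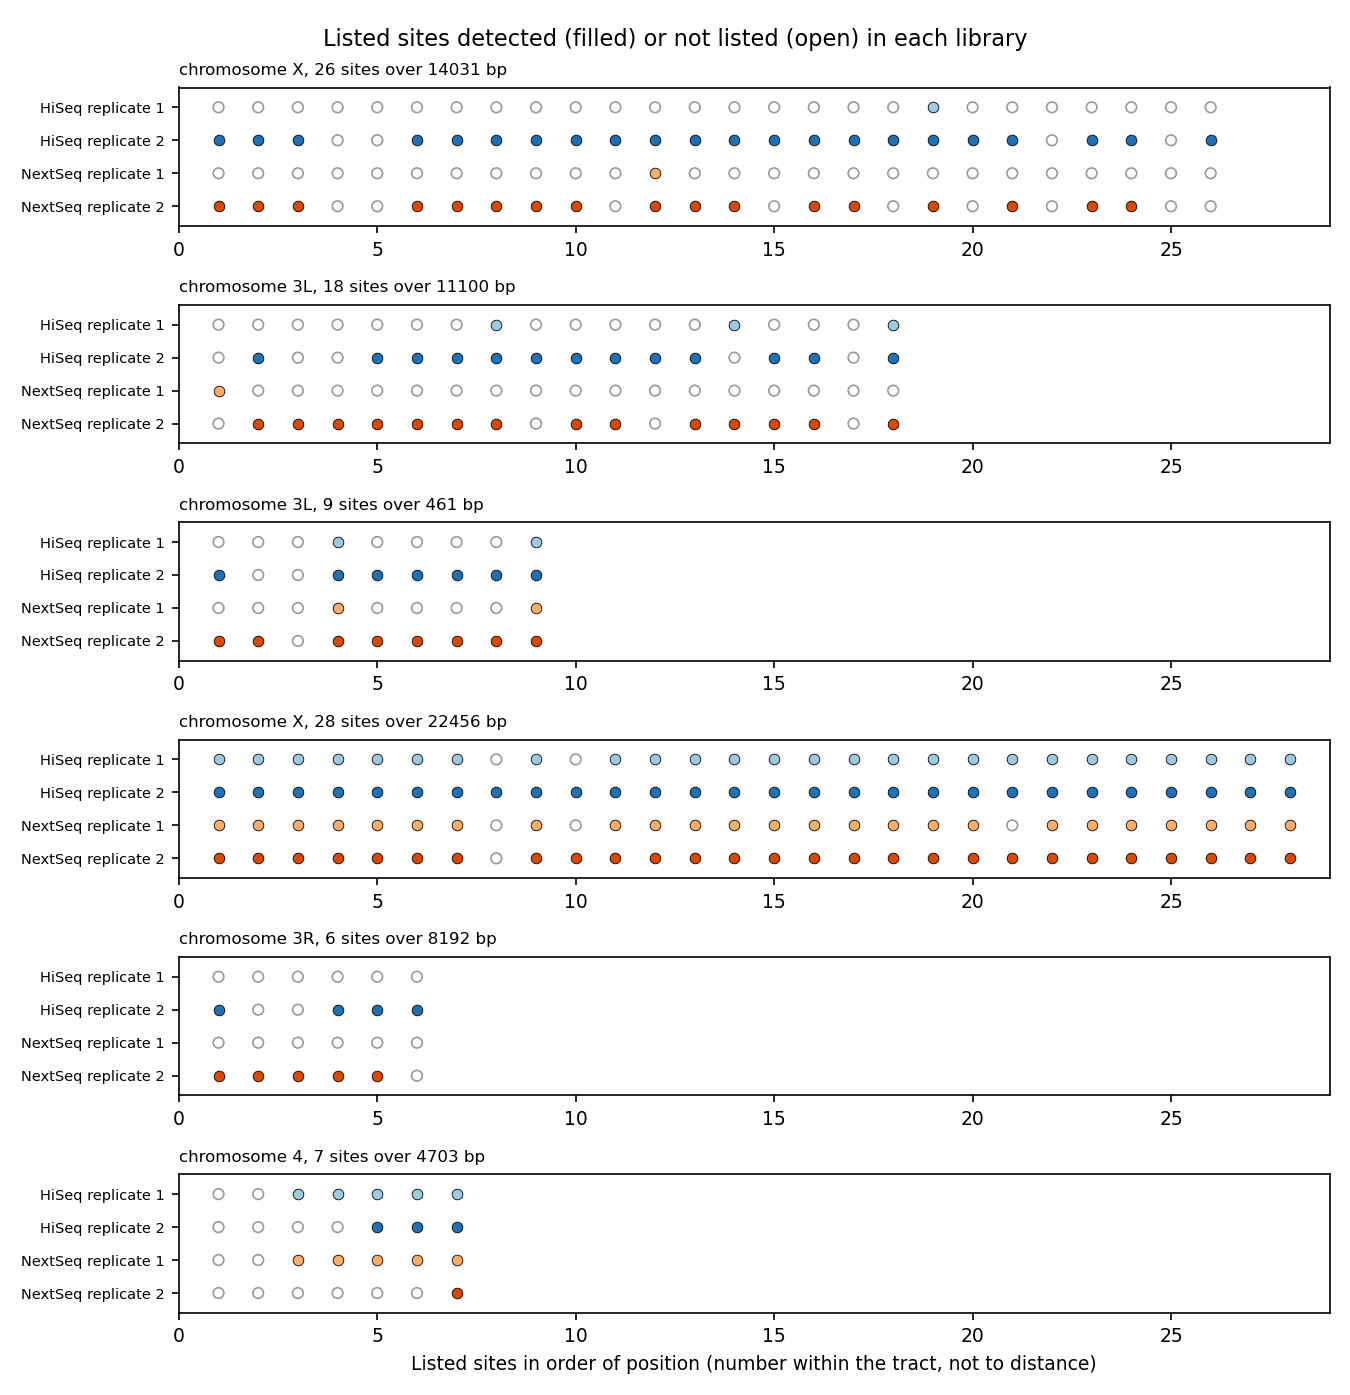
Listed sites of 6 tracts in order of position (x axis, number within the tract), in each of the 4 libraries (rows). Filled circles mark a site that the library listed and open circles one that it did not. In the tract of 26 sites on X the rows of replicate 1 hold 1 filled circle each, in the tract of 28 sites on X nearly all circles are filled, and in the tract on chromosome 4 the rows of replicate 1 hold more filled circles than those of replicate 2.

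On 2R from 12534985 to 12538295, the libraries of replicate 1 listed 1 and 0 of 8 sites (HiSeq, NextSeq) and those of replicate 2 listed 6 and 4. This tract had the highest ratio of other differences on HiSeq, from 2 to 20, with 49 and 116 on NextSeq. The tract of 12 sites at X from 8807793 to 8835501 gave 3 and 4 sites in replicate 1 and 10 and 10 in replicate 2, with 2.36 and 4.14 times as many other differences.

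The remaining 5 of the 10 had mean differences of 38.9 to 50.0 points and were seen in all 4 libraries. The 9 sites at X from 12527136 to 12538980 gave 3 and 3 in replicate 1 against 7 and 8 in replicate 2. The 13 sites at 2R from 20797921 to 20807676 gave 3 and 4 against 10 and 9. The 23 sites at X from 11843915 to 11871571 gave 13 and 10 against 21 and 22.

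In that last tract the 5 consecutive sites seen in replicate 2 only lay together near its end, while the sites before them were largely shared. The 21 sites at 2L from 13485127 to 13492507 gave 9 and 7 in replicate 1 against 17 and 16 in replicate 2. The 9 sites at 3R from 27423154 to 27436549 gave 3 and 3 against 8 and 5, and share their mean of 38.9 points with a tract of 9 sites on X that the tie rule left out.

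A few large tracts were detected nearly in full in every library and left little room for a difference. The 9 sites at 2L from 2779342 to 2790828 were listed in all 4 libraries. Of the 28 sites at X from 16354271 to 16376726, 26 and 25 were listed in replicate 1 and 28 and 27 in replicate 2, with other differences at 216 in each HiSeq library. The 10 sites at X from 18064143 to 18068512 gave 9 in each library except NextSeq replicate 2, with 10.

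The 11 sites at 3L from 6937020 to 6947854 gave 8 and 9 in replicate 1 and 10 and 9 in replicate 2. This tract held both reference bases, A and T, among its detected sites. The 9 sites at 4 from 1061062 to 1062883 gave 8 and 9 in replicate 1 and 8 and 8 in replicate 2, the only large tract whose mean difference was below 0, at -5.56 points. There NextSeq replicate 2 held 2.45 times as many other differences as NextSeq replicate 1, and HiSeq replicate 2 had 13 against 15.

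**Figure D4:**
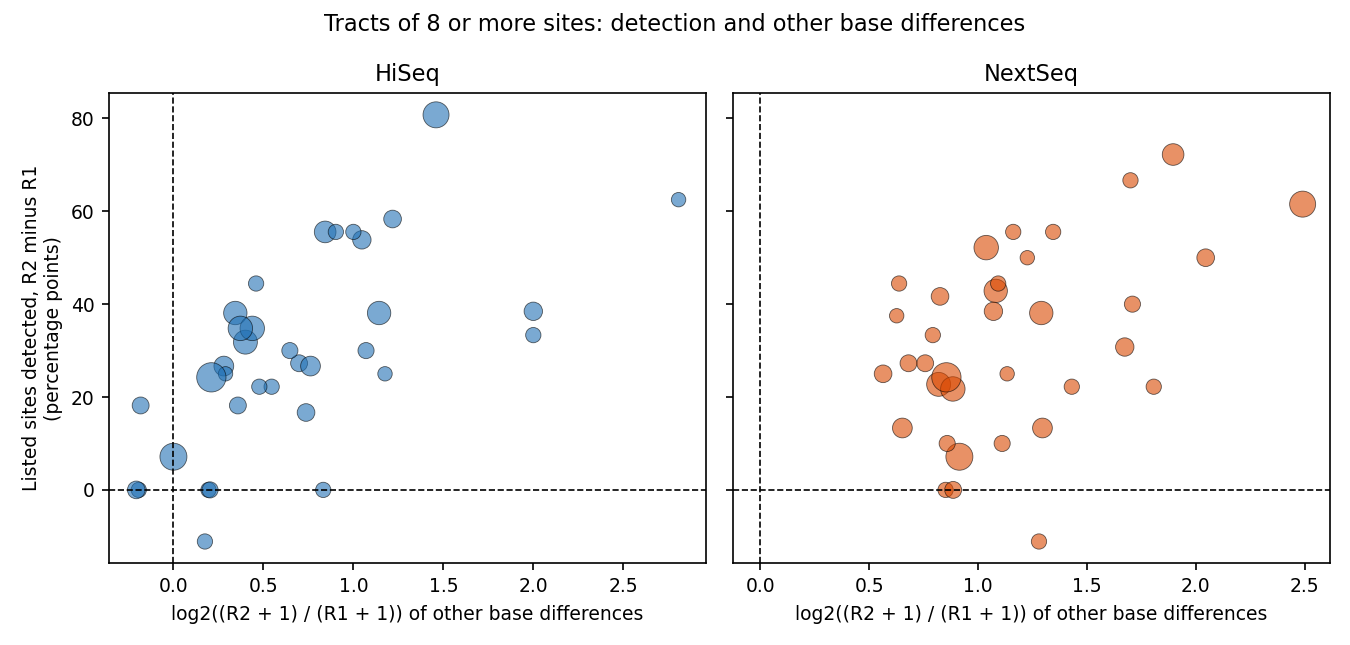
Difference in detection between replicate 2 and replicate 1 (y axis, percentage points) against the log2 ratio of other base differences in the tract and 500 bp on each side (x axis, 1 added to each count), on HiSeq at the left and NextSeq at the right. Each circle is 1 of the 35 tracts of 8 or more sites, with its area following the number of sites, and tracts with a higher ratio tended to have a larger difference.

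Detection and other differences rose together across the large tracts. Pearson's r across the 35 tracts was 0.64 on HiSeq and 0.45 on NextSeq, between the difference in share and the log2 ratio of other differences with 1 added to each count. Across all 419 tracts, most of which hold few sites, r was 0.24 and 0.15. These are descriptions over tracts that share the same libraries. Replicate 2 had more other differences than replicate 1 in 31 of the 35 tracts on HiSeq, with a median ratio of 1.46, and in all 35 on NextSeq, with a median of 2.12.

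Inside the spans of all tracts, other differences numbered 4064 and 5755 on HiSeq, replicate 1 first, and 17748 and 37077 on NextSeq. The ratios of 1.42 and 2.09 were below those of the whole tables, 1.68 and 2.62. On the log2 scale replicate 2 was higher by 0.50 on HiSeq and by 1.06 on NextSeq, a mean of 0.78. The exact permutation test over 4 libraries gave p = 0.667, but it takes no account of the instrument, which sets most of the spread, and so does not show that the numbers were alike. When only the 114 tracts with another difference inside their span in every library were kept, the gain in detected sites was 29.9 points, against 31.4 over all. Another difference somewhere in a span does not show that the listed sites were covered, so this choice of tracts does not control for depth.

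The tracts that were higher in replicate 1 were few, and they are named here after their values were seen. The tract at 4 from 579338 to 584040 stood apart, with 7 sites of which the libraries of replicate 1 listed 5 and 5, the same 5 on both instruments, and those of replicate 2 listed 3 (HiSeq) and 1 (NextSeq). The 5 sites lay at its end, from 584010 to 584040, and 2 of them were in replicate 1 only on both instruments. Other differences there went the other way, from 20 to 29 on HiSeq and from 76 to 180 on NextSeq.

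The tract of 3 sites at 3L from 11169283 to 11169286 gave 3 and 3 in replicate 1 and 2 and 2 in replicate 2. The 3 tracts seen in replicate 1 alone were the single sites at 3L 15986627 and at 2RHet 1333130, and a pair at 2LHet from 22235 to 22243 of which HiSeq listed 1 and NextSeq both.

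**Figure D5:**
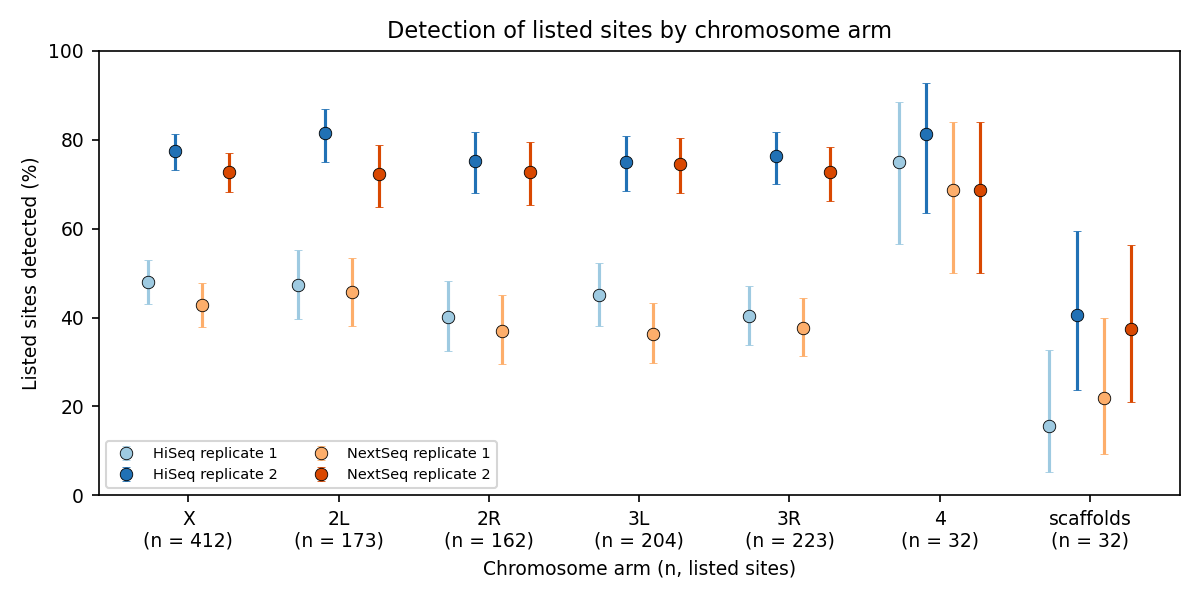
Share of listed sites detected in each library (y axis, %) by chromosome arm (x axis, with the number of listed sites), with exact 95% binomial intervals. On X, 2L, 2R, 3L and 3R both libraries of replicate 2 lie above both of replicate 1, while on chromosome 4 the 4 libraries lie between 68.8% and 81.3%.

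By chromosome arm, replicate 2 was higher on each of the 5 large arms, and chromosome 4 had the smallest difference. On X, 48.1% and 42.7% of 412 sites were detected in HiSeq and NextSeq replicate 1 and 77.4% and 72.8% in replicate 2. On 2L, 2R, 3L and 3R the gain of replicate 2 ran from 26.6 points (2L, NextSeq) to 38.2 points (3L, NextSeq). On chromosome 4, replicate 1 detected 24 of 32 sites on HiSeq (75.0%, 56.6 to 88.5) and 22 on NextSeq (68.8%, 50.0 to 83.9), and replicate 2 detected 26 (81.3%, 63.6 to 92.8) and 22 (68.8%). These 32 sites form 10 tracts, and the 2 largest are those described above with a difference below 0. The gain on chromosome 4 was 6.25 and 0 points, with wide intervals, and its difference from the other arms was not tested.

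On the heterochromatin scaffolds, with 32 sites in 15 tracts, detection was low in every library, at 15.6% and 21.9% in replicate 1 and 40.6% and 37.5% in replicate 2. Of the 9 sites seen in replicate 1 only on both instruments, 3 were on 3L, 2 on 2R, 2 on chromosome 4 and 2 on these scaffolds. None was on X, 2L or 3R, which held 78, 29 and 50 of the 246 sites seen in replicate 2 only. These were 18.9%, 16.8% and 22.4% of the listed sites on each of these arms, against 19.9% of all 1238 listed sites. The placement of the 9 sites was not tested.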

How the data were processed

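RNA-seq of mock-treated heads was read from 4 deposited tables of base differences, each giving chromosome, position, reference base and read base, and from the authors' list of edited sites, whose end coordinates matched the positions of the tables. The tables hold no counts, scores or coverage. The authors aligned reads to dm3 with TopHat 2.0.6 on Bowtie 2.0.2 (up to 4 mismatches, 1 alignment kept per read), per the labels' protocols. Reads left unaligned went to bsmap 2.74 with up to 3 mismatches. The submitters' processing notes also list SAMtools 0.1.19. The rules for calling differences and sites are not given in the sources used here.

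Read bases were upper-cased, and detection, tracts and counts were computed with Python 3.11.15, numpy 2.4.6, pandas 2.3.3, scipy 1.17.1 and matplotlib 3.10.9. The calculation was tested on simulated data and recovered 1431 of 1431 detection patterns and 300 of 300 tracts. Intervals are exact (Clopper-Pearson, 95%), and p-values come from exact permutation over 4 libraries. Sites of a tract share transcripts and are not independent. P-values measure only the spread between these libraries, which may be technical.

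Tracts named were those of 4 or more sites seen in 1 number on both instruments only, and, among tracts of 8 or more sites, the 10 largest and 5 smallest mean differences and any with opposite signs on the instruments. Members and lists were chosen with earlier results of these data known. Alternatives covered the letter case, the gap, tract size, scaffolds, each instrument and each library. The tables carry no expression values, so the tissue label was not checked against markers.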

Additional observations from a re-analysis of the deposited data

Results flagged for a closer look

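In the tract of 9 sites at X from 408285 to 410997 the instruments pointed in opposite directions. HiSeq replicates 1 and 2 listed 8 and 7 sites, a difference of -11.1 points, and NextSeq replicates 1 and 2 listed 5 and 9, a difference of 44.4 points. Of the 9 sites, 3 were in all 4 libraries. Other base differences numbered 30 and 34 on HiSeq and 179 and 279 on NextSeq. The difference between the instruments was not tested, and it was the only tract of 8 or more sites with opposite signs.

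Unlisted A-to-G differences were present in the tracts seen in replicate 2 only. On the strand of the tract, 30 such positions were in both libraries of replicate 2 and in neither of replicate 1, and 5 the other way round. On the opposite strand the counts were 5 and 1. C-to-T and G-to-A gave 15 and 1, and transversions 22 and 3. By library, the tract's strand held 28 (replicate 1) and 122 (replicate 2) such positions on HiSeq, and 21 and 131 on NextSeq. These tracts were chosen for their listed sites in the same tables, and no test was made.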

How the results depend on the processing

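Of the alternative values, 42 moved, all of them counts that changed beyond a set fold limit. The other 69 were counts within that limit, or differences that kept their sign whatever their size. Of the differences 0 reversed, and a count could not reverse by its definition. The difference in the share of listed sites stayed between 25.9 and 33.6 points and that of the mean share per tract between 20.9 and 34.5. With HiSeq alone, sites in replicate 2 only numbered 439 and in replicate 1 only 51, tracts 130 and 12, and tracts higher in replicate 1 numbered 20. With NextSeq alone these counts were 441, 52, 135, 14 and 27. Using 1 instrument drops the demand for agreement of both. With tracts limited to those with another difference inside the span in every library, sites numbered 151 and 5, tracts seen in 1 number only 11 and 0, and tracts higher in replicate 2 or 1 numbered 68 and 1. A gap of 100 bp gave 147 tracts seen in replicate 2 only and 8 higher in replicate 1, and a gap of 1 kb gave 9 of the latter. With both letter cases required, 1 tract was seen in replicate 1 only and 2 were higher there. Tracts of at least 2 sites gave 34 and 1 seen in replicate 2 or 1 only and 3 higher in replicate 1. Tracts of at least 4 sites gave 5 and 0, with 60 higher in replicate 2 and 1 in replicate 1. Without scaffolds, 1 tract was seen in replicate 1 only and 3 were higher there.

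Leaving out 1 library at a time gave 314 to 359 sites in replicate 2 only and 20 to 29 in replicate 1 only, 91 to 107 and 5 to 7 tracts, and 212 to 214 and 20 to 27 tracts with a higher share. A lone library need match no partner, so the counts of sites and tracts seen in 1 number only grow by construction. The counts of tracts with a higher share use only the instrument that keeps both libraries. They repeat the values of HiSeq alone and NextSeq alone, as do the other differences inside tracts. The numbers of moved and other values given above include these repeats. No paired analysis was possible because the replicate number, which would form the pairs, is itself what is compared. The instrument can serve as a block instead: within HiSeq and NextSeq replicate 2 was higher by 31.3 and 31.4 points in listed sites, by 32.1 and 32.3 in the mean share per tract, and by 0.50 and 1.06 on the log2 scale in other differences inside tracts. Depth is unknown, which limits every statement on a site that was not listed.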

Other observations

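Other base differences were also counted by window. Of 6082 windows of 10000 bp with at least 1 such difference, 234 held 10 or more found in both libraries of replicate 2 and in neither of replicate 1, and 85 held 10 or more with the numbers exchanged. Over the whole genome the ratio of such differences was 1.84 to 1 for C-to-T and G-to-A and 1.92 to 1 for transversions. A fixed count of 10 is thus reached more easily in replicate 2, and uneven placement was not tested. The highest replicate 2 count was in the first window of the mitochondrial chromosome, with 51 and 35. The window at 3L from 2060001 to 2070000 had 39 and 3, with 0 shared by all 4 libraries. It contains a tract of 3 listed sites, from 2065650 to 2069694, of which each library of replicate 2 listed 2 and replicate 1 none. In and around that tract other differences numbered 4 and 113 on HiSeq, replicate 1 first, and 15 and 196 on NextSeq. This tract was chosen after its values were seen.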
